A study of Mus musculus with 6 samples.

Results

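A set of 10 genes of the NF-κB system was followed through this comparison. It holds the subunit genes Nfkb1, Nfkb2, Rel, Rela and Relb, the inhibitor genes Nfkbia and Nfkbie, the nuclear IκB genes Nfkbiz and Bcl3, and Tnfaip3. Members were taken as every probe set whose annotated symbol was exactly one of these names, whatever its value. This gave 18 of the 45037 probe sets tested, for 9 of the 10 genes. No probe set of the annotation used here carried the symbol Nfkb1, which was not analysed here. Nfkbia had 5 probe sets, Nfkbiz had 3, Nfkb2, Nfkbie and Tnfaip3 had 2 each, and Rel, Rela, Relb and Bcl3 had 1 each.

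RNA came from mouse CD4 T cells cultured towards a regulatory T cell (Treg) state, 3 samples transduced with an E47-ER retrovirus and 3 control samples transduced with a bHLH-ER retrovirus, on Affymetrix arrays. E47, a product of Tcf3, is an E protein, a helix-loop-helix factor that binds E-box sites, and was fused here to a hormone-binding domain (ER) that tamoxifen releases into the nucleus. Both groups started as CD4+CD25- lymph node cells of C57BL/6 mice and were cultured for 2 days on plate-bound anti-CD3 (2 µg/ml) and anti-CD28 (1 µg/ml), with TGF-β1 (5 ng/ml) and IL-2 (200 U/ml). Both were sorted as CD4+Thy1.1+, the mark of the virus, and then held for 6 hours with IL-2, the same antibodies and tamoxifen at 1 µM. Experiments 1, 2 and 3 used mice of 7, 8 and 9 weeks, pooled from 3, 3 and 4 animals per sample, and each gave 1 E47 and 1 control sample. E47 came from a retrovirus in the E47 samples, no sample lacked tamoxifen, and the make-up of the control construct beyond its label is unknown here.

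NF-κB is a family of dimeric transcription factors built from RelA, RelB, c-Rel, p50 and p52. Classical inhibitors such as IκBα and IκBε hold the dimers in the cytoplasm until the IκB kinase marks them for destruction. The T cell receptor and CD28 are known to switch this pathway on, and both groups were cultured with antibodies to CD3 and CD28, but NF-κB activity was not measured here. Many inhibitor genes are themselves NF-κB targets and close a negative feedback loop. In Treg cells c-Rel is known for driving Foxp3, the Treg lineage factor.

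The T cell marker genes Cd3d, Cd3e, Cd3g, Cd4, Cd2 and Cd5 were all brighter than the median probe set. Of 5 B cell markers measured 2 were, and of 6 myeloid and dendritic cell markers 1 was. Of 4 CD8 and NK cell markers 2 were brighter than the median probe set, Cd8a and Cd8b1. The summed intensity of the 4 ran from 210.2 to 346.9 in E47 arrays and from 160.9 to 229.2 in control arrays. Cd8b1 and Cd8a, with log2 means of 7.1 and 6.5 in E47 and 6.6 and 6.2 in control arrays, made up most of it. The summed intensity of 5 Treg markers ran from 9874 to 11943 in E47 arrays and from 12098 to 13546 in control arrays. The largest part of this sum came from its brightest gene, Tnfrsf18, with log2 means of 12.46 in E47 and 12.72 in control arrays. Next came Ctla4, at 11.46 and 11.48. Foxp3, at 6.75 and 6.96, adds little to it. The log2 fold changes of the 5 genes ran from -0.30 to -0.02. Tnfrsf18 is also counted among the receptors below, and Il2ra among the NF-κB target genes. No marker passed the test between the groups, and whether each was detected above background was not tested. For Tcf3 the log2 fold changes of 3 probe sets were -0.01, 0.28 and 0.02, none past the test, and it is not known here whether these probes lie within the introduced sequence. Experiment 2 stood apart, with Foxp3 log2 levels of 7.83 in its E47 and 8.16 in its control array, against 6.07 to 6.36 in the other E47 arrays and 6.29 to 6.42 in the other control arrays. The other Treg markers did not share this: Tnfrsf18 and Ctla4 were lowest in experiment 2 in both groups, with log2 levels of 12.25 and 11.13 in E47 and 12.55 and 11.33 in control arrays, and Il2ra and Ikzf2 peaked in different experiments in the 2 groups.

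The E47 arrays were set against the control arrays to ask whether NF-κB genes differed with the construct once tamoxifen had acted for 6 hours. Bcl3 stood above its control level in all 3 pairs, 1.86-fold on average, and its limma adjusted p of 0.0582 lay just above the threshold of 0.05. Most of the others lay below: 15 of the 18 probe sets had a negative log2 fold change and 10 were lower in E47 in all 3 pairs, among them all 5 of Nfkbia and both of Tnfaip3. None of the 18 passed the limma test adjusted over all probe sets, where 0.271% of probe sets passed. At an unadjusted p under 0.05, 6 were lower, beside 4.74% of all probe sets, and 1 was higher, beside 4.33%, so 7 of 18 against 9.06% in either direction. All 18 were brighter than the median probe set. When only the 22518 brighter probe sets were fitted, 2811 had an unadjusted p under 0.05 in limma, a larger share, and 7 members' probe sets did. Over all probe sets 55.3% had a negative fold change, 17.5% were lower in all 3 pairs and 13.5% were higher in all 3. The median log2 fold change was -0.16 over the 18 probe sets and -0.02 over all probe sets. Probe sets of 1 gene measure the same transcripts and are not independent. In these bulk samples, fewer cells that express a gene and less RNA per cell cannot be told apart.

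**Figure D1:**
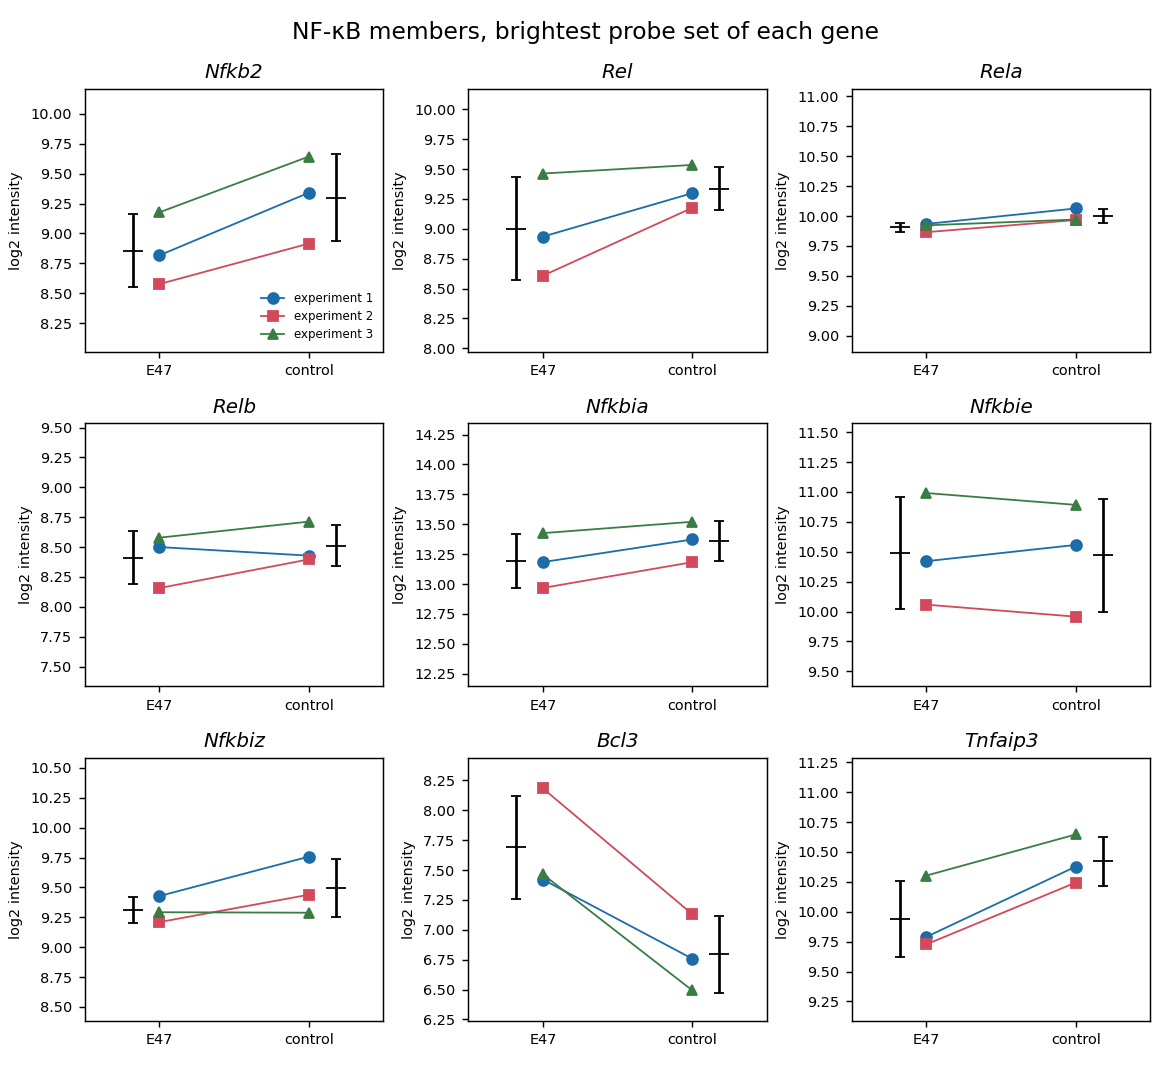
Log2 intensity of the 9 measured genes, each by its brightest probe set, in the E47 arrays (left) and control arrays (right); lines join the arrays of 1 experiment, black marks are group means with SD (n = 3), and every panel spans the same log2 range. E47 lies above control in all 3 experiments for Bcl3 and below it in all 3 for Nfkb2, Rel, Rela, Nfkbia and Tnfaip3, and the pairs point both ways for Relb, Nfkbie and Nfkbiz.

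The promoters of 4 members are shown because they belong to Bcl3, the member with the largest difference, and to Tnfaip3, Nfkb2 and Nfkbia, which lay below control together. Rel and Rela were also lower in E47 in all 3 pairs, and their windows are not printed. For Tnfaip3 the upstream of 2 windows is printed, and for Nfkb2 the first of 3 by genome coordinate. Sequences are RefSeq's for build GRCm38.p6, read on the strand of the gene from 250 bases before to 30 bases after an annotated transcription start. Capitals mark matches to the 10-base κB consensus on either strand, the letters that NF-κB dimers are known to bind.
Bcl3, chr7:19822726-19823005, minus strand: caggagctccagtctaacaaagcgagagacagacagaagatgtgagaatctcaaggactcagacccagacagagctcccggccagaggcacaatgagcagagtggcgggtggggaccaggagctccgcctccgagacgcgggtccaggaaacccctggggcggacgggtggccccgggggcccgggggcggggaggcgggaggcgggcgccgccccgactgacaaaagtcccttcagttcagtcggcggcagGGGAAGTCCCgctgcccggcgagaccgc
Tnfaip3, chr10:19015381-19015660, minus strand: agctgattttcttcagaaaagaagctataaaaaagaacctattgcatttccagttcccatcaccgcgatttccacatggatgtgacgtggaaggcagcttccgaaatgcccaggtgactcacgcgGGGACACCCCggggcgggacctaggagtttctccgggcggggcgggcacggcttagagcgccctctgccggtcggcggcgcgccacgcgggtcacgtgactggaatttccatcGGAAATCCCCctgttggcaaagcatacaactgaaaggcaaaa
Nfkb2, chr19:46304487-46304766, plus strand: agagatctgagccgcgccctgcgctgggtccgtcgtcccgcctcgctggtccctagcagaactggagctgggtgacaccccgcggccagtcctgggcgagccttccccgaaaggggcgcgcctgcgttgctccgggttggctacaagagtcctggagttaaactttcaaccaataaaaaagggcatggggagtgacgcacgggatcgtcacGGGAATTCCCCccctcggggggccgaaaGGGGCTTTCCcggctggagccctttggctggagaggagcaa
Nfkbia, chr12:55492618-55492897, minus strand: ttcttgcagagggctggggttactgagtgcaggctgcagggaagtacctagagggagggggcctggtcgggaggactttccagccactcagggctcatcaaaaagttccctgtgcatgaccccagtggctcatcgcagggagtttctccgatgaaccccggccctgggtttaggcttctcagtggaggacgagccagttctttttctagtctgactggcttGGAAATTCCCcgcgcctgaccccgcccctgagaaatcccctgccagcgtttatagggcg
The Bcl3 match, GGGAAGTCCC, began 3 bases into the transcript, and the Nfkbia match, GGAAATTCCC, began 29 bases before the start. In the Nfkb2 window the matches GGGAATTCCC and GGAATTCCCC overlap, and another, GGGGCTTTCC, began 11 bases before the start.

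Promoter windows of 300 bases, running to 50 bases past the start, were held for 7 of the 9 measured genes, 10 windows in all. The κB consensus was found in 8 of the 10 windows, belonging to 6 of the 7 genes, and in 8.46% of the 32851 promoter windows of the mouse table. It was not found in the Rela window or in the downstream Tnfaip3 window. Windows 2 and 3 of Nfkb2 overlap and share 1 match, GGGACTTTCC. In the Rel window 2 overlapping matches began 92 and 91 bases before the start, and Nfkbie had 1 match, GGGGGATTCC. The E-box CANNTG, the class of site E proteins bind, was present in 2 of the 10 windows and in 72.3% of all windows. Those were Nfkbie with 2 E-boxes and the upstream Tnfaip3 window with 4, of which 1 was CAGGTG. The form CAGGTG or CACCTG was present in 20.2% of all windows. No E-box CANNTG was found in the Bcl3, Nfkb2, Rel, Rela and Nfkbia windows or in the downstream Tnfaip3 window. A match describes letters in a window and not binding.

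**Figure D2:**
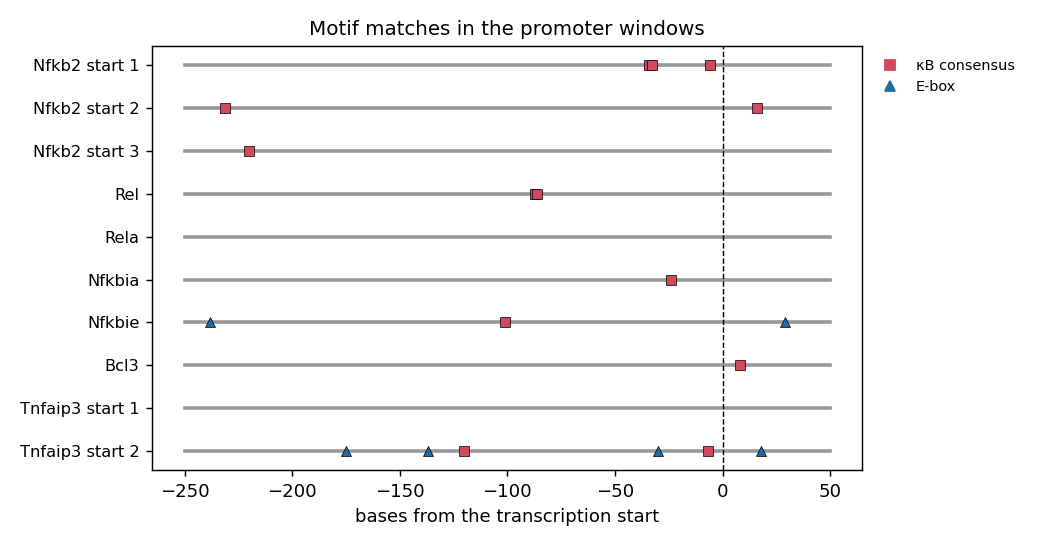
Matches to the κB consensus (squares) and to the E-box (triangles) along 10 promoter windows of 7 members, by distance in bases from the transcription start (dashed line); windows of 1 gene are numbered by genome coordinate. Squares appear in 8 windows and triangles in the Nfkbie window and 1 Tnfaip3 window.

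Among the subunits, Nfkb2 encodes p100, the precursor of p52 and a carrier of the alternative pathway. Its brighter probe set, 1425902_a_at, had log2 levels of 8.82, 8.58 and 9.18 in E47 replicates 1 to 3, against 9.34, 8.92 and 9.64 in control replicates 1 to 3. The E47 array was the lower one in every pair, while the groups as a whole overlapped because experiment 2 was low in both. The log2 fold change was -0.44 (SE 0.09, 95% interval -0.65 to -0.23, limma adjusted p = 0.209). The second probe set, 1429128_x_at, whose suffix is Affymetrix's mark for probes that may bind other transcripts, gave differences of -0.38, -0.13 and 0.15 in pairs 1 to 3. Its log2 fold change was -0.12 (SE 0.12), so the 2 probe sets did not show the same size of difference.

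Rel encodes c-Rel, the subunit most tied to lymphocytes. It had log2 levels of 8.93, 8.61 and 9.46 in E47 replicates and 9.30, 9.18 and 9.53 in control replicates. The 3 pair differences were -0.36, -0.57 and -0.07, all downward but unequal, and experiment 3 showed hardly any. The log2 fold change was -0.33 (SE 0.12, interval -0.62 to -0.05, limma adjusted p = 0.503).

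Rela encodes p65, the main activating subunit of the classical pathway. Its log2 levels were 9.93, 9.86 and 9.92 in E47 replicates and 10.06, 9.97 and 9.97 in control replicates. The groups did not overlap, as was so with E47 below for 6.65% of all probe sets, yet the gap was small, with a log2 fold change of -0.09 (SE 0.08, limma adjusted p = 0.759). Rela was also the steadiest member, with group SDs of 0.04 for E47 and 0.05 for control.

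Relb encodes the partner of p52 in the alternative pathway. It had log2 levels of 8.50, 8.16 and 8.58 in E47 replicates and 8.43, 8.40 and 8.71 in control replicates. Pair 1 ran upward by 0.07 and pairs 2 and 3 downward, and the log2 fold change was -0.10 (SE 0.10, interval -0.34 to 0.14, limma adjusted p = 0.782). It was -0.19 without experiment 1 and -0.03 without experiment 2. Among the 5 subunit probe sets the median log2 fold change was -0.12, and 3 were lower in all 3 pairs.

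Nfkbia encodes IκBα, the fast classical inhibitor that NF-κB itself induces. Its brightest probe set, 1420088_at, had log2 levels of 13.18, 12.97 and 13.43 in E47 replicates and 13.37, 13.18 and 13.52 in control replicates. All 5 probe sets were lower in E47 in every pair, with log2 fold changes between -0.32 and -0.09. The probe set 1448306_at, with log2 levels of 12.00, 11.54 and 12.07 in E47 and 12.33, 11.78 and 12.46 in control replicates, had the largest, -0.32 (SE 0.08, limma adjusted p = 0.374). Next came 1449731_s_at at -0.27 (SE 0.08), with pair differences from -0.31 to -0.25. The sizes were small, 1.25-fold at most, and the ranges of the 2 groups overlapped in every Nfkbia probe set.

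Nfkbie, which encodes the slower inhibitor IκBε, was not lower in E47 in every pair as Nfkbia was. Its brighter probe set, 1458299_s_at, had log2 levels of 10.42, 10.06 and 10.99 in E47 replicates and 10.56, 9.96 and 10.89 in control replicates. Pair 1 was lower and pairs 2 and 3 were higher in E47, in this and in the second probe set. The log2 fold changes were 0.02 (SE 0.09, interval -0.21 to 0.25) and 0.12 (SE 0.12, interval -0.17 to 0.41), with limma adjusted p = 0.959 and 0.791. Leaving out 1 experiment moved the second, 1431843_a_at, between 0.0035 (without experiment 2) and 0.25 (without experiment 1).

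Tnfaip3 encodes A20, a ubiquitin-editing enzyme that shuts off signalling upstream of the IκB kinase. The brighter probe set, 1433699_at, had log2 levels of 9.79, 9.73 and 10.30 in E47 replicates and 10.38, 10.24 and 10.65 in control replicates. This was the member with the most negative difference, -0.48 (SE 0.09, interval -0.71 to -0.26, limma adjusted p = 0.196), a level 1.40-fold lower in E47, and the groups overlapped by E47 replicate 3. The dimmer probe set, 1450829_at, had log2 levels of 6.06, 5.97 and 6.12 in E47 replicates and 6.23, 6.22 and 6.66 in control replicates. There the groups did not overlap, and the log2 fold change was -0.32 (SE 0.10, limma adjusted p = 0.473), or -0.21 without experiment 3.

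Nfkbiz encodes IκBζ, a nuclear IκB that works with p50 at selected genes. The brightest of its 3 probe sets, 1417483_at, had log2 levels of 9.43, 9.21 and 9.29 in E47 replicates and 9.76, 9.44 and 9.29 in control replicates. In all 3 probe sets pairs 1 and 2 were lower in E47 and pair 3 was not, with differences of 0.00, 0.10 and 0.29 in that pair. The log2 fold changes lay between -0.19 and -0.08, each with an interval that included 0 and limma adjusted p from 0.638 to 0.838. Leaving out 1 experiment moved 1417483_at between -0.28 (without experiment 3) and -0.11 (without experiment 1), and 1457404_at between -0.37 (without experiment 3) and -0.02 (without experiment 1).

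Bcl3 encodes the other nuclear IκB, which binds p50 and p52 dimers on DNA and can act as a coactivator or corepressor. It had log2 levels of 7.42, 8.18 and 7.46 in E47 replicates and 6.76, 7.13 and 6.49 in control replicates. Each E47 array lay above every control array, as was so for 4.57% of all probe sets, and experiment 2 was the highest in both groups. The pair differences were 0.66, 1.05 and 0.97, giving a log2 fold change of 0.90 (SE 0.11, interval 0.63 to 1.16, limma adjusted p = 0.0582). Of the 4 CD8 and NK cell markers in the same arrays, Cd8b1 (log2 fold change 0.51), Cd8a (0.24) and Klra1 (0.19) were higher in E47 in all 3 pairs, Cd8a by 0.0004 in pair 1, and Ncr1 (-0.12) was lower in all 3. Klra1 and Ncr1 were dim, with log2 means of 2.86 and 3.73 in E47 and 2.66 and 3.85 in control arrays. The median probe set was at 5.12. The part of these 4 markers in the Bcl3 difference was not tested.

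**Figure D3:**
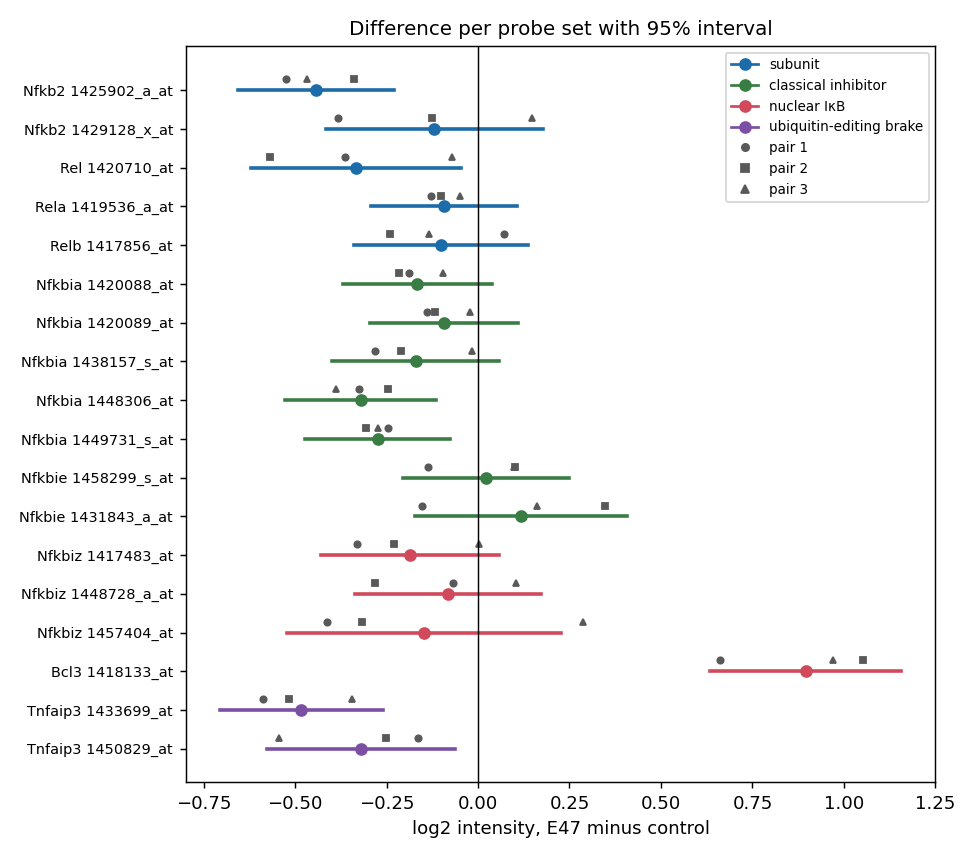
Log2 difference between E47 and control for all 18 probe sets of the 9 measured members, with coloured points for the limma estimate, bars for its 95% interval and small grey symbols for the 3 pairs. The interval lies above 0 for Bcl3 alone, below 0 for 6 probe sets, and includes 0 for the other 11.

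The side of the threshold on which Bcl3 fell depended on the setting. With 1 probe set per gene and adjustment over 18193 genes, where 0.781% were called higher, Bcl3 rose (limma adjusted p = 0.0164). Without the pairing, where 0.115% of probe sets passed, its limma adjusted p was 0.610. Without experiment 2 it was 0.399 and without experiment 3 it was 0.512, while without experiment 1, where 1.08% were called higher, it was 0.0141. Over the 11 alternatives the adjusted p ran from 0.00622 to 0.610 and the log2 fold change from 0.81 to 1.01, and 5 gave a call. The other calls of Bcl3 came after quantile normalization, where 0.269% of probe sets were called higher, among probe sets brighter than the median (0.608%) and with a prior variance that followed intensity (0.804%). That prior was the 1 setting that called other members, and it called 0.435% of all probe sets lower. There Tnfaip3 (1433699_at, adjusted p = 0.0124), Nfkb2 (1425902_a_at, 0.0272) and the Nfkbia probe sets 1448306_at (0.0166) and 1449731_s_at (0.0185) were lower in E47. Over all alternatives their adjusted p reached 0.980, 0.852, 1.00 and 1.00.

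Levels were also set side by side over the experiments. Of the 18 probe sets, 14 had their lowest level in experiment 2 in E47 and in control arrays alike, against 17.7% of all probe sets, and 12 had their highest in experiment 3 in both groups, against 14.0%. Bcl3 was the 1 member probe set highest in experiment 2 in both groups, against 15.8% of all probe sets. Nfkbie varied most, with log2 means of 10.49, 10.01 and 10.94 over the 2 arrays of experiments 1, 2 and 3. Its F test for experiment had a limma adjusted p of 0.0676. Nfkb2 averaged 9.08, 8.75 and 9.41 and Bcl3 7.09, 7.66 and 6.98 in experiments 1, 2 and 3. The Nfkbiz probe sets and that of Rela, 4 in all, were highest in experiment 1 in both groups, against 11.5% of all probe sets. None of the 18 passed the F test of experiment adjusted over all probe sets, which 0.604% passed, and 11 of 18 had an unadjusted p under 0.05, beside 12.7% of all. With 1 probe set per gene, where 3.2% passed, Nfkbie (adjusted p = 0.0201) and Nfkb2 (0.0459) passed it in limma. Foxp3, highest in experiment 2, passed the F test adjusted over all probe sets (limma adjusted p = 0.0146), and its part in the members' levels was not tested. With experiment 2 left out, the log2 fold changes of E47 over control were 0.82 for Bcl3, -0.47 for Tnfaip3 (1433699_at), -0.50 for Nfkb2 (1425902_a_at), -0.36 for Nfkbia (1448306_at) and -0.22 for Rel. The Rel value, -0.33 with all 3 experiments, moved the most among these 5. Experiment, age of the mice and number pooled cannot be told apart.

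**Figure D4:**
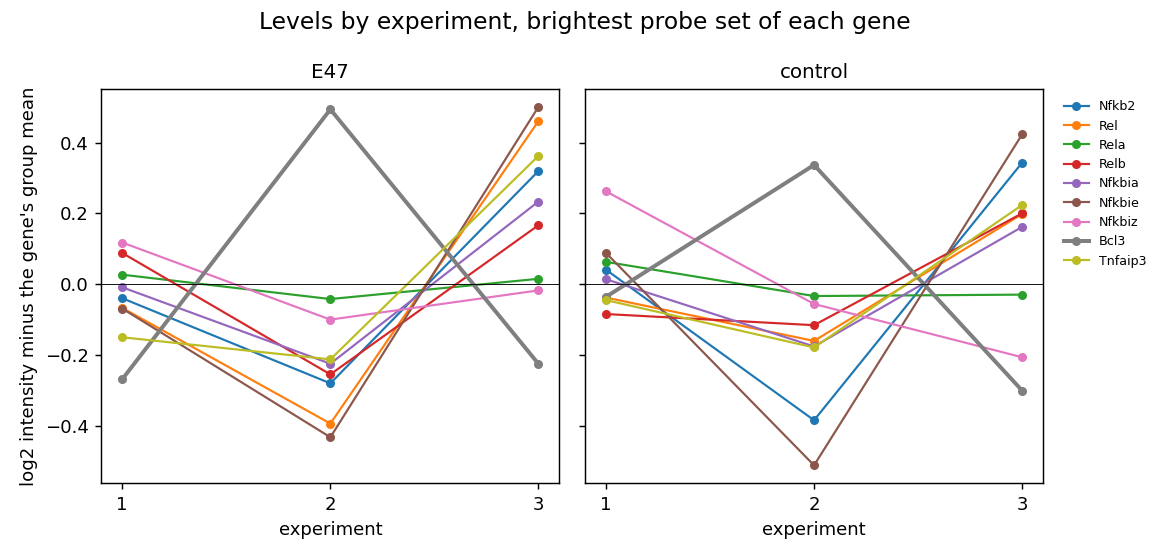
Log2 intensity by experiment for the 9 genes (brightest probe sets), each minus its own mean over the 3 arrays of the group, with E47 arrays on the left and control arrays on the right. Bcl3 (thick grey) peaks in experiment 2 in both panels, while Nfkb2, Rel, Relb, Nfkbia, Nfkbie and Tnfaip3 are lowest in experiment 2 and highest in experiment 3.

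Genes around the members were described from 4 lists, each gene by its brightest probe set, without a set test. The lists were chosen with earlier results of these data known, so their shares are a description only. Over all 18193 genes the median log2 fold change was -0.03, 19.9% were lower in all 3 pairs and 0.440% passed the adjustment over all probe sets. Of 16 other inhibitors and brakes 0 passed and the median was -0.02, with 1 gene at an unadjusted p under 0.05 in limma. This was Otud7b, a deubiquitinase that restrains the alternative pathway, at -0.22 (SE 0.08, limma adjusted p = 0.526), and Nkiras1 was at 0.20 (SE 0.08, adjusted p = 0.553). Of 22 upstream signalling genes 0 passed and the median was -0.05, with 2 at an unadjusted p under 0.05 in limma. They were the kinase Tbk1 at 0.25 (SE 0.09, adjusted p = 0.518) and the adaptor Traf5 at 0.24 (SE 0.09, adjusted p = 0.524), both higher in all 3 pairs.

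Of 14 receptors that signal to NF-κB 0 passed in limma, 9 (64.3%) had an unadjusted p under 0.05 (1 higher and 8 lower) against 10.1% of all genes, and the median was -0.24. Tnfrsf11a, 1 of the 8, was dim, with log2 means of 5.04 in E47 and 5.28 in control arrays. Il18r1, a chain of the IL-18 receptor, had log2 levels of 8.56, 9.83 and 7.87 in E47 replicates and 9.30, 10.29 and 8.77 in control replicates (log2 fold change -0.70, SE 0.11, limma adjusted p = 0.122). Tnfrsf4, which encodes OX40, had log2 levels of 12.90, 12.66 and 12.98 in E47 and 13.26, 13.12 and 13.47 in control replicates, without overlap (-0.44, SE 0.08, adjusted p = 0.196 in limma). Cd27, a costimulatory receptor of the same family, was the 1 receptor of the 9 that was higher, at 0.43 (SE 0.10, limma adjusted p = 0.300).

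Of 37 known NF-κB target genes 1 fell, 0 rose, and 21 (56.8%) were lower in all 3 pairs. The median log2 fold change was -0.18, and 16 (43.2%, against 10.1% of all genes) had an unadjusted p under 0.05, of which 14 were lower. Among the 14, Plau, Cxcl10, Vcam1 and Nos2 were dim, with log2 means of 4.10, 4.82, 5.24 and 5.28 in E47 arrays. Their control means were 4.33, 5.12, 5.46 and 5.55, beside 5.12 for the median probe set. Il1a, the cytokine IL-1α, fell, with log2 levels of 6.53, 5.47 and 6.36 in E47 replicates and 7.63, 7.12 and 8.11 in control replicates (-1.50, SE 0.14, limma adjusted p = 0.0283). Its call held in 6 of 11 alternatives and was lost without the pairing (limma adjusted p = 0.394), with a random block (0.146), with the offset of 16 (0.0547), without experiment 2 (0.212) and without experiment 3 (0.321). Over the 11 its adjusted p ran from 0.00146 to 0.394 and its log2 fold change from -1.70 to -1.31. The chemokine gene Ccl3 averaged 11.22 ± 0.51 in E47 and 11.99 ± 0.52 in control arrays (SD, n = 3 each, log2), a difference of -0.77 (SE 0.09, limma adjusted p = 0.0563). Cd83, an activation marker, had pair differences of -0.64, -0.90 and -0.73 and a log2 fold change of -0.76 (SE 0.09, limma adjusted p = 0.0635). The 2 targets that were higher at an unadjusted p under 0.05 were Ltb, which encodes lymphotoxin β (0.72, limma adjusted p = 0.0662), and the activation marker Cd69 (0.46, limma adjusted p = 0.196). Cd27, Ltb and Cd69 were chosen after their values were seen.

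**Figure D5:**
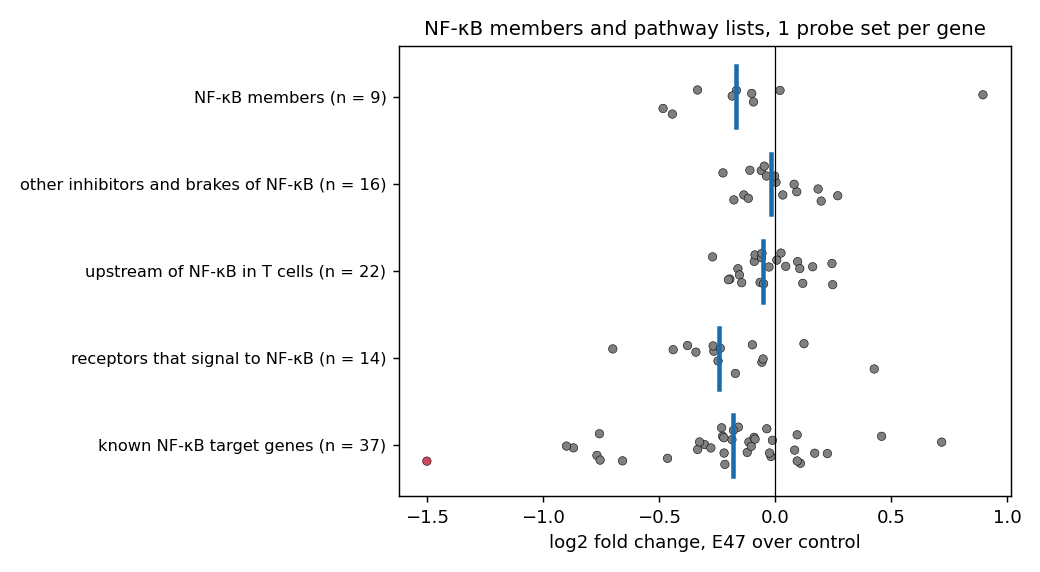
Log2 fold change of E47 over control for the 9 measured members and for the genes of 4 pathway lists, 1 point per gene by its brightest probe set, with a blue bar for each list's median. Il1a (red) is the 1 gene past the adjusted threshold, and Bcl3 is the member on the far right.

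The genes whose profile over the 6 arrays was most like that of Bcl3 were Pdcd4, Clpx and Serinc3, each with a Pearson r of 0.993 across the arrays. Pdcd4, an inhibitor of translation initiation, had log2 levels of 11.23, 11.71 and 11.25 in E47 replicates and 10.68, 11.02 and 10.41 in control replicates. It shared with Bcl3 the high experiment 2 arrays and the lack of overlap between the groups (log2 fold change 0.70, SE 0.09, limma adjusted p = 0.0833). Clpx, a subunit of a mitochondrial protease, had a log2 fold change of 0.41 (SE 0.09), and the membrane protein gene Serinc3 one of 0.33 (SE 0.08). These 3 were picked for likeness out of 18193 genes, so the r values are a description of 6 arrays that share experiments.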

How the data were processed

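The values are intensities on a linear scale, 1 for each array and probe set, as the authors deposited them. They were made with RMA (version not stated), per the submitters' processing notes. This method subtracts background, forces the arrays onto a common distribution and combines the probes of a set, which can compress differences of bright or dim probe sets. Array medians lay between 34.3 and 35.4, so log2 was taken with nothing added. The 64 Affymetrix controls were left out, which left 45037 probe sets. Of all 45101, 932 had several symbols in the platform annotation and 9211 were not listed there. No dim probe set was removed, and detection above background was not tested.

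E47 was compared with control in limma 3.58.1 under R 4.3.3 (lmFit, eBayes, two-sided), with the experiment as a block and Benjamini-Hochberg adjustment over all probe sets at 0.05. The pairing comes from the series' design, 1 sample of each group per independent experiment, and from replicate numbers in the titles. Deviations from group means correlated at 0.09, 0.52 and 0.31 for same-numbered arrays and between -0.43 and 0.22 for the others. E47 array 1 correlated more with control array 3 (0.22) than with control array 1 (0.09), so these values do not bear out pair 1. Genes named beside the members were up to 4 genes of each list past the threshold and up to 2 that missed it, by lowest p, and the 3 genes most like the member with the lowest p. Members and lists were chosen with earlier results of these data known. Alternatives were no block, a random block, other scalings, an offset of 16, a filter on dim probe sets, 1 probe set per gene (the brightest), a prior that follows intensity, and leaving out each experiment. Arrays carry no read depth, and 3 per group limit the precision.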

Additional observations from a re-analysis of the deposited data

How the results depend on the processing

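Over all probe sets 122 passed, 107 higher and 15 lower. Without the replicate block 52 passed, with 1 probe set per gene 208, with a prior that follows intensity 558, and leaving out 1 experiment gave 4 to 551 (without experiments 3 and 1). Of the members' probe sets 0 passed, also without the block and with the block as a random term. After quantile normalization, with probe sets brighter than the median, and with 1 probe set per gene, 1 passed, Bcl3 each time, and 5 passed with the prior that follows intensity. Leaving out 1 experiment gave 0 to 1. For the difference between experiments 0 members' probe sets passed (0.604% of all), 1 with the offset of 16 (0.853%), 1 with probe sets brighter than the median (2.7%), 2 with 1 probe set per gene (3.2%) and 9 with the prior that follows intensity (3.8%). Leaving out 1 experiment gave 0 to 5, where 0 to 1120 of all probe sets passed (5 and 1120 without experiment 1). Signs turned only in values near 0 when an experiment was left out. Nfkb2 1429128_x_at then ran from -0.25 to 0.012 (above 0 without replicate 1), Nfkbie 1458299_s_at from -0.019 to 0.10 (below 0 without replicates 2 and 3) and Nfkbiz 1448728_a_at from -0.18 to 0.017 (above 0 without replicate 2). Every other log2 fold change of a member kept its sign in each alternative run. The cause of these changes was not tested, beyond fewer samples or fewer features tested where the alternative has them. Signal over background was not available, so how much of a dim probe set's level is background is unknown.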
